A study of Homo sapiens with 2 samples.

Results

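The insulin-like growth factor (IGF) axis was examined in the transcriptomes of 2 human lung cancer cell lines, MTAC-P and PC9. MTAC-P is a derivative of PC9 that resists inhibitors of the EGFR tyrosine kinase, per the labels, and PC9 is the lung adenocarcinoma line it came from, whose mutant EGFR is permanently active and whose growth such inhibitors block. Each line had 1 column of RNA-seq values, from cells grown in DMEM with serum, and no drug treatment at harvest is given in the labels. How MTAC-P was selected, whether it is a single clone and how many cultures or libraries each column combines are not stated in the sources used here. Members were the 10 gene symbols IGF2, IGF1R, INSR, IGF2R, IRS1, IRS2, IGFBP2, IGFBP3, IGFBP4 and IGFBP6, of 30843 symbols in the tables. They were chosen by name, with earlier results of these data known, and all 10 were found, as 27 listed transcripts.

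IGF1 and IGF2 are secreted peptides that activate the receptor tyrosine kinase IGF1R, and IGF2 also activates one splice form of the insulin receptor INSR. The activated receptors phosphorylate the docking proteins IRS1 and IRS2, which recruit PI3-kinase and so switch on AKT. IGF2R binds IGF2 without signalling through a kinase and carries it to lysosomes, and the IGF binding proteins hold the ligands outside the cell, where they can restrain or prolong their action. IGF1R signalling is one of the routes by which lung cancer cells have been described to survive EGFR inhibition.

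Values were read as FPKM (fragments corrected for transcript length and library size), so that levels can be set side by side between genes. The values listed summed to 685082 FPKM in MTAC-P and 693444 FPKM in PC9, with read depth unknown. Of 10 lung epithelial markers, the keratin genes KRT18 and KRT19 were the 2 most abundant in both lines. KRT18 stood at 2720 FPKM in MTAC-P and 2329 FPKM in PC9, and KRT19 at 430 FPKM in MTAC-P and 549 FPKM in PC9. The markers NAPSA, SFTPB and NKX2-1 were low in both lines. NAPSA stood at 1.92 FPKM in MTAC-P and 1.67 FPKM in PC9, and SFTPB at 1.74 FPKM in MTAC-P and 1.001 FPKM in PC9. The lung lineage factor NKX2-1 was listed at 0 in MTAC-P and stood at 0.0787 FPKM in PC9. Of 6 leukocyte markers, 1 reached a mean of 1 FPKM, CD68 with 28.8 FPKM in MTAC-P and 22.2 FPKM in PC9. Of 6 fibroblast and endothelial markers with a value, 2 did, COL1A1 (1.33 FPKM in MTAC-P and 1.20 FPKM in PC9) and CDH5 (4.13 FPKM in MTAC-P and 3.34 FPKM in PC9). In bulk RNA, fewer cells that express a gene and less of its RNA per cell cannot be told apart.

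The comparison asked how the resistant line differs from its parent. In MTAC-P the ligand gene IGF2 stood at 19.7 FPKM, against 9.23 FPKM in PC9. The binding protein genes IGFBP2 and IGFBP6 stood at 10.6 FPKM and 4.64 FPKM in MTAC-P, against 69.4 FPKM and 14.4 FPKM in PC9. The receptor genes IGF1R and IGF2R and the docking protein genes IRS1 and IRS2 lay close to their PC9 levels. The third receptor gene, INSR, was low in both lines, at 0.904 FPKM in MTAC-P, against 2.28 FPKM in PC9. Differences (log2 ratios) were measured as log2((MTAC-P + 1)/(PC9 + 1)) on FPKM summed per gene. By this measure 1 member was at least 2-fold higher (IGF2) and 2 were at least 2-fold lower (IGFBP2 and IGFBP6).

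All 10 members reached the mean of 1 FPKM that was required for a comparison. Of the 11435 genes that reached it, 7.77% were 2-fold or more apart, 3.48% higher and 4.29% lower in MTAC-P. The median log2 ratio was -0.15 over the members and -0.02 over all genes compared. Of the members 2 lay above 0 and 8 below, and 5 lay within 0.2 of 0. The matching shares of all genes compared were not computed, so these counts have no background. With 1 value column per line there is no replicate check, no standard error and no p-value for any of these differences.

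**Figure D1:**
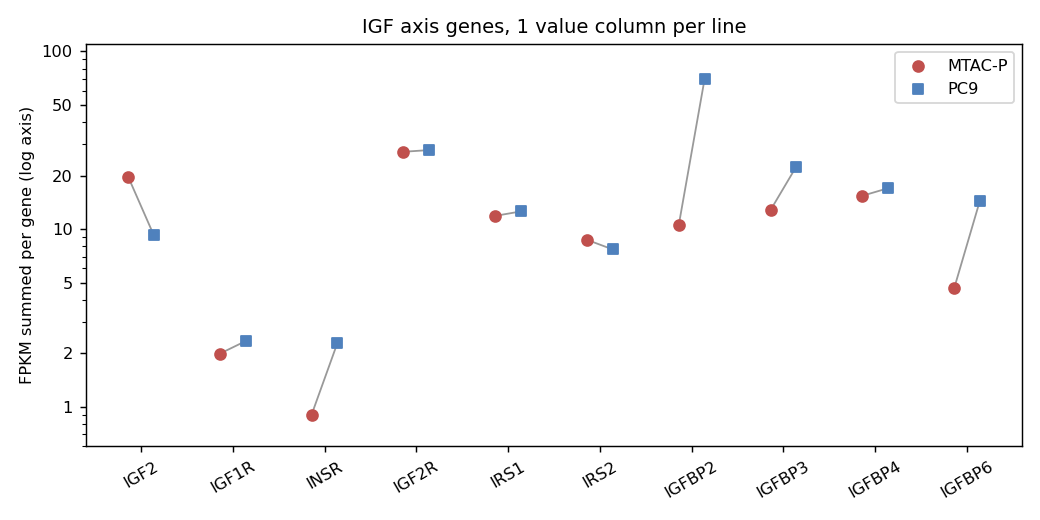
Level of each member in FPKM summed over its listed transcripts (vertical log axis), with MTAC-P as circles and PC9 as squares, 1 value column per line. IGF2 is higher in MTAC-P (19.7 FPKM in MTAC-P, 9.23 FPKM in PC9), IGFBP2 (10.6 FPKM in MTAC-P, 69.4 FPKM in PC9) and IGFBP6 (4.64 FPKM in MTAC-P, 14.4 FPKM in PC9) are lower, and IGF2R differs least (27.2 FPKM in MTAC-P, 27.8 FPKM in PC9).

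In MTAC-P the order of the members from the highest level to the lowest was IGF2R, IGF2, IGFBP4, IGFBP3, IRS1, IGFBP2, IRS2, IGFBP6, IGF1R and INSR. In PC9 it was IGFBP2, IGF2R, IGFBP3, IGFBP4, IGFBP6, IRS1, IGF2, IRS2, IGF1R and INSR. IGF2 was therefore 2nd in MTAC-P and 7th in PC9, and IGFBP2 was 6th in MTAC-P and 1st in PC9. The kinase receptors IGF1R and INSR were the 2 lowest members in both lines. These levels sum the listed transcripts only, and all coding transcripts in GENCODE were listed for 3 members (IRS1, IRS2 and IGFBP4), so the order holds for what was listed. With no replicate, neighbours in either order cannot be separated beyond the spread between cultures.

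IGF2 encodes a growth factor that is made mainly in the fetus and is often made again in tumours. The gene (ENSG00000167244.19) lies on the minus strand of chromosome 11, from 2129112 to 2149603 (GENCODE release 29, GRCh38). Its log2 ratio was 1.02, the 383rd highest of the genes compared. The call sat at the threshold: it was 0.99 when both columns were scaled to the same sum without mitochondrial transcripts, 0.99 with equal upper quartiles and 0.80 with a pseudocount of 5.

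Among the listed IGF2 transcripts, the difference was larger for one group of start sites. Of 9 coding IGF2 transcripts in GENCODE 7 were listed. IGF2 had 11 listed transcripts, of which 4 were at 0 in both lines and 4 were not in GENCODE release 29. Those 4 held 0.191 FPKM together in MTAC-P and 0.00500 FPKM in PC9. Transcripts that start downstream, between positions 2137287 and 2137305, summed to 12.2 FPKM in MTAC-P and 2.70 FPKM in PC9, a log2 ratio of 1.83. Transcripts that start upstream, between 2138974 and 2141238, summed to 7.38 FPKM in MTAC-P and 6.52 FPKM in PC9, a log2 ratio of 0.16. The downstream starts thus made up 61.6% of the gene's listed value in MTAC-P and 29.3% in PC9.

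These sums are added up from single IGF2 transcripts, which did not differ alike within a group. ENST00000381395, from a downstream start, stood at 9.51 FPKM in MTAC-P and 1.56 FPKM in PC9 (log2 ratio 2.04). ENST00000418738, which starts 15 bases further upstream, stood at 2.64 FPKM in MTAC-P and 1.15 FPKM in PC9 (0.76). ENST00000381406, from an upstream start, stood at 6.41 FPKM in MTAC-P and 5.11 FPKM in PC9 (0.28), and ENST00000416167 at 0.971 FPKM in MTAC-P and 1.41 FPKM in PC9 (-0.29). Only 118 exon bases belong to the downstream-start transcripts alone, against 1708 that belong to the upstream-start ones alone. Each exon base of ENST00000381395 is also in at least 1 other listed IGF2 transcript, so its separate value rests on how the authors' software shared out fragments.

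Neighbours and overlapping genes at the IGF2 locus were low. The read-through gene INS-IGF2 and insulin (INS) were listed at 0 in both lines, and the antisense gene IGF2-AS stood at 0.0933 FPKM in MTAC-P and 0.0610 FPKM in PC9. The labels do not say whether strand was kept, and IGF2-AS reads cannot then be told apart from IGF2 reads where the genes overlap. H19, the non-coding RNA that is expressed from the other parental chromosome than IGF2 in most tissues, stood at 2.16 FPKM in MTAC-P and 1.23 FPKM in PC9 (log2 ratio 0.50). The other ligand gene, IGF1, was at 0.000223 FPKM in MTAC-P and listed at 0 in PC9.

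**Figure D2:**
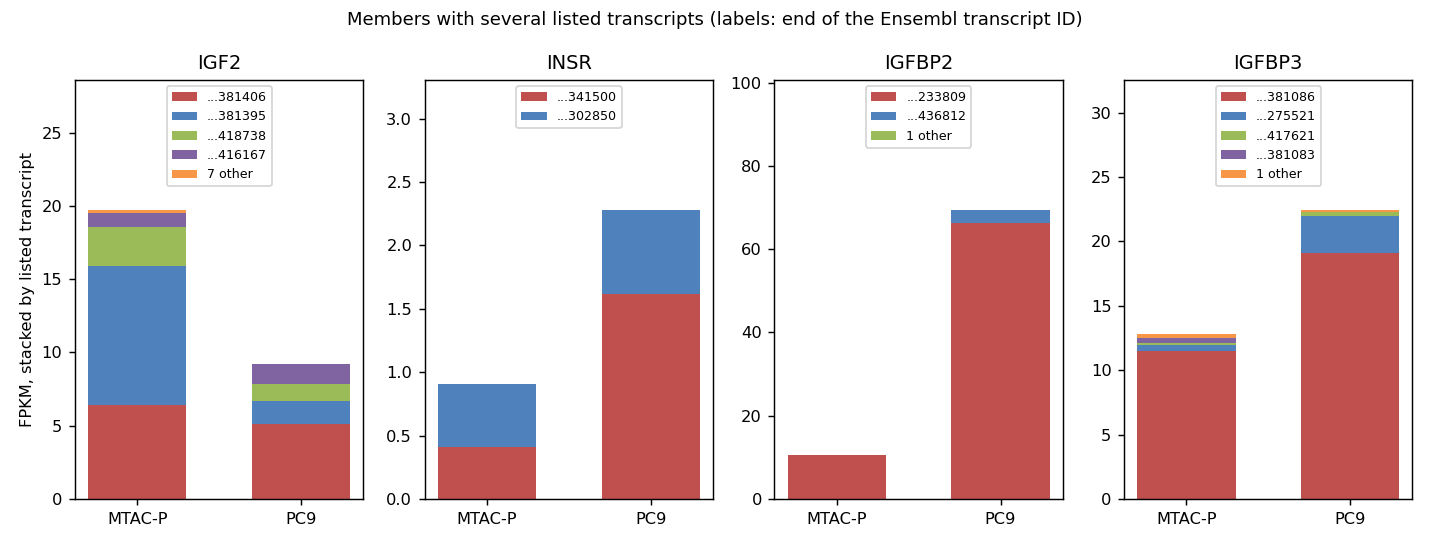
FPKM of IGF2, INSR, IGFBP2 and IGFBP3 (vertical axis, linear from 0, a scale of its own for each gene), stacked by listed transcript, with MTAC-P on the left and PC9 on the right of each panel. The IGF2 transcript ENST00000381395 is 9.51 FPKM in MTAC-P and 1.56 FPKM in PC9, while ENST00000381406 is 6.41 FPKM in MTAC-P and 5.11 FPKM in PC9.

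Among the receptors, IGF1R (ENSG00000140443.14, chromosome 15, 98648539 to 98964530, plus strand) stood at 1.99 FPKM in MTAC-P and 2.34 FPKM in PC9, a log2 ratio of -0.16. It had 1 listed transcript, ENST00000268035, of 6 coding ones in GENCODE, so forms with other IDs do not enter its value. IGF2R (ENSG00000197081.13, chromosome 6, 159969099 to 160113507, plus strand) stood at 27.2 FPKM in MTAC-P and 27.8 FPKM in PC9, a log2 ratio of -0.03. Both receptor genes were thus within 2-fold, at levels more than 10 times apart from each other in each line. The ratio of IGF2R to IGF2 levels was 1.38 in MTAC-P and 3.01 in PC9.

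INSR, the insulin receptor gene (ENSG00000171105.13, chromosome 19, 7112255 to 7294034, minus strand), stood at 0.904 FPKM in MTAC-P and 2.28 FPKM in PC9. Its log2 ratio was -0.78, within 2-fold. The gene is low and the pseudocount of 1 weighs on it: as a plain ratio MTAC-P had 0.397 of the PC9 level, and with a pseudocount of 0.1 the log2 ratio was -1.24, past 2-fold. The ratio of INSR to IGF1R levels was 0.455 in MTAC-P and 0.974 in PC9.

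Both listed INSR transcripts are coding, and they differ by exon 11, a cassette exon of 36 bases (chromosome 19, 7150497 to 7150532). The form without it, isoform A, is the one that binds IGF2 with high affinity, and the form with it, isoform B, is the main insulin receptor of liver and other metabolic tissues. The exon, in capitals between its flanking coding bases, and the same junction without it are shown because they define the 2 forms. Both were read from the GENCODE release 29 transcripts and are given 5′ to 3′ on the minus strand.
INSR ENST00000302850: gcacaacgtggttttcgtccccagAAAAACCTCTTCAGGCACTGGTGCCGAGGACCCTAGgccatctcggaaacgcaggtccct
INSR ENST00000341500: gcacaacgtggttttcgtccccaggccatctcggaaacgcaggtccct

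ENST00000341500, without exon 11, stood at 0.413 FPKM in MTAC-P and 1.62 FPKM in PC9, a log2 ratio of -0.89. ENST00000302850, with exon 11, stood at 0.491 FPKM in MTAC-P and 0.661 FPKM in PC9, a log2 ratio of -0.16. The form without the exon therefore made up 45.7% of the listed INSR value in MTAC-P and 71.0% in PC9. The 2 transcripts also differ at their ends: ENST00000341500 has 4372 exon bases that the other lacks, against 139 for ENST00000302850, of which 36 are exon 11. The split is therefore not a measurement of exon 11 alone, and the tables used here hold no junction counts.

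The docking protein genes differed little. IRS1 (ENSG00000169047.5, chromosome 2, 226731317 to 226799759, minus strand) stood at 11.9 FPKM in MTAC-P and 12.6 FPKM in PC9, a log2 ratio of -0.08. IRS2 (ENSG00000185950.8, chromosome 13, 109752698 to 109786568, minus strand) stood at 8.70 FPKM in MTAC-P and 7.68 FPKM in PC9, a log2 ratio of 0.16. Together they came to 20.6 FPKM in MTAC-P and 20.2 FPKM in PC9. Each has a single coding transcript in GENCODE and it was listed, so these 2 values carry no uncertainty from missing or shared transcripts of the same gene. IRS4 was listed at 0 in both lines.

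The 4 member binding protein genes had log2 ratios from -2.61 (IGFBP2) to -0.13 (IGFBP4). Their levels summed to 43.4 FPKM in MTAC-P and 123 FPKM in PC9. IGFBP2 supplied 24.3% of that sum in MTAC-P and 56.3% in PC9, and IGFBP4 supplied 35.5% in MTAC-P and 13.8% in PC9. The ratio of the IGF2 level to the summed binding protein level was 0.455 in MTAC-P and 0.0749 in PC9. This is a ratio of RNA levels, and no protein was measured here.

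IGFBP2 encodes a secreted protein that binds IGF2 more tightly than IGF1 and that also carries an integrin-binding motif. The gene (ENSG00000115457.9) lies on the plus strand of chromosome 2, from 216632828 to 216664436. It stood at 10.6 FPKM in MTAC-P and 69.4 FPKM in PC9, a plain ratio of 0.152 and a log2 ratio of -2.61. This was the 34th lowest of the 11435 genes compared. Its full-length transcript ENST00000233809 carried the value, with 10.6 FPKM in MTAC-P and 66.3 FPKM in PC9 (-2.54). ENST00000436812, whose annotation lacks its start, stood at 3.16 FPKM in PC9 and near 0 (3e-06 FPKM) in MTAC-P. Under the alternatives tried the log2 ratio of IGFBP2 lay between -2.71 and -2.26.

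Among 7558 coding genes averaging 5 FPKM or more, IGFBP2 had the 11th lowest log2 ratio. The nearest genes below it in that order were ALDH3A1, an aldehyde dehydrogenase (-2.83), and CCNL2, a cyclin of the splicing machinery (-2.75). The nearest above it were GATSL2 (-2.52) and DCXR, a xylulose reductase (-2.46). With 2 value columns, likeness between genes is a single ratio.

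IGFBP6, whose product prefers IGF2 strongly over IGF1, was the other member at least 2-fold lower. The gene (ENSG00000167779.8) lies on the plus strand of chromosome 12, from 53097436 to 53102345. It stood at 4.64 FPKM in MTAC-P and 14.4 FPKM in PC9, a plain ratio of 0.322 and a log2 ratio of -1.45, the 209th lowest of the genes compared. Its value comes from ENST00000301464, the 1 listed of 4 coding transcripts in GENCODE. The log2 ratio stayed past 2-fold under each alternative tried (-1.61 to -1.01).

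IGFBP2 and IGFBP6 have short main transcripts of 1439 and 1169 bases, against 2200 for IGFBP4. Of 762 genes whose most abundant transcript was at least 1000 and under 1500 bases long and whose mean was at least 5 FPKM, 5.25% were 2-fold or more apart. Over all 7870 genes with that mean the share was 5.48%. Both shares count higher and lower genes together, and a relation of length to the values of IGFBP2 and IGFBP6 was not tested.

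IGFBP3 encodes the main carrier of IGFs in blood and is a target of p53 and TGF-beta. The gene (ENSG00000146674.14) lies on the minus strand of chromosome 7, from 45912245 to 45921874. It stood at 12.8 FPKM in MTAC-P and 22.5 FPKM in PC9, a log2 ratio of -0.77, which is within 2-fold. IGFBP4 (ENSG00000141753.6, chromosome 17, 40443461 to 40457731, plus strand), which mostly inhibits IGF action and is cut by the protease PAPPA, stood at 15.4 FPKM in MTAC-P and 17.0 FPKM in PC9, a log2 ratio of -0.13. Its single coding transcript was listed.

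Most of the listed IGFBP3 value sat in a transcript with a shortened reading frame. Of 8 coding IGFBP3 transcripts in GENCODE 5 were listed, so forms with other IDs do not enter these shares. ENST00000381086 stood at 11.5 FPKM in MTAC-P and 19.1 FPKM in PC9 (log2 ratio -0.68). This is 89.8% of the gene's listed value in MTAC-P and 85.0% in PC9. ENST00000275521, which encodes the full protein, stood at 0.493 FPKM in MTAC-P and 2.92 FPKM in PC9 (-1.39). Compared with it, ENST00000381086 lacks 291 coding bases of the first exon (45920841 to 45921131) and is annotated with 194 codons in place of 291. It also has 353 bases at its 3′ end that the other lacks, so the split between the 2 is not a measurement of the first exon alone. The remaining 3 listed IGFBP3 transcripts each stood below 0.4 FPKM in both lines.

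The missing stretch holds a feature that defines the family. IGF binding proteins share a cysteine-rich domain with the amino acid motif GCGCCXXC (X is any residue), which IGFBP6 is known to lack. Its codons, in capitals, are shown for the members that have it, with 18 coding bases on each side, read from the GENCODE release 29 transcripts. On GRCh38 the capitals lie at 216633770 to 216633793 on chromosome 2 (IGFBP2, plus strand), 45920922 to 45920945 on chromosome 7 (IGFBP3, minus strand) and 40443889 to 40443912 on chromosome 17 (IGFBP4, plus strand).
IGFBP2 ENST00000233809: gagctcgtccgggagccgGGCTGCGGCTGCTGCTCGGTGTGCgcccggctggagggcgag
IGFBP3 ENST00000275521: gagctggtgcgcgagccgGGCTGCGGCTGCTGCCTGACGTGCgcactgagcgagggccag
IGFBP4 ENST00000269593: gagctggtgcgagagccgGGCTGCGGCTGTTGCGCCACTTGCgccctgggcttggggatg

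Over the 24 bases in capitals IGFBP2 and IGFBP3 shared 20, IGFBP3 and IGFBP4 shared 19, and IGFBP2 and IGFBP4 shared 18. The motif was found once in the reading frames of ENST00000233809, ENST00000275521 and ENST00000269593. It was in neither the most abundant listed IGFBP3 transcript, ENST00000381086, nor the IGFBP6 transcript ENST00000301464. Among the searched transcripts with the motif, log2 ratios were -2.54 (ENST00000233809, IGFBP2), -1.39 (ENST00000275521, IGFBP3) and -0.13 (ENST00000269593, IGFBP4). Among those without it, ENST00000381086 of IGFBP3 stood at -0.68 and ENST00000301464 of IGFBP6 at -1.45. The other listed transcripts of IGFBP2 and IGFBP3 were not searched. Of the member binding proteins IGFBP2 alone had codons for Arg-Gly-Asp, the integrin-binding motif, in the transcripts searched. They are shown in capitals because they mark the IGF-independent function of the member with the largest difference (chromosome 2, 216664027 to 216664035, plus strand, GRCh38).
IGFBP2 ENST00000233809: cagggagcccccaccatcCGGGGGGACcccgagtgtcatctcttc

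The binding protein genes outside the member list were low. IGFBP5 stood at 1.47 FPKM in MTAC-P and 2.92 FPKM in PC9, a log2 ratio of -0.67. IGFBP7, a distant relative with weak IGF binding, stood at 0.346 FPKM in MTAC-P and 0.0349 FPKM in PC9. IGFBP1, a liver protein and FOXO target, stood at 0.0143 FPKM in MTAC-P and 0.0354 FPKM in PC9. IGFBP1 to IGFBP7 together summed to 45.2 FPKM in MTAC-P and 126 FPKM in PC9, so the 4 members made up nearly all of it.

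**Figure D3:**
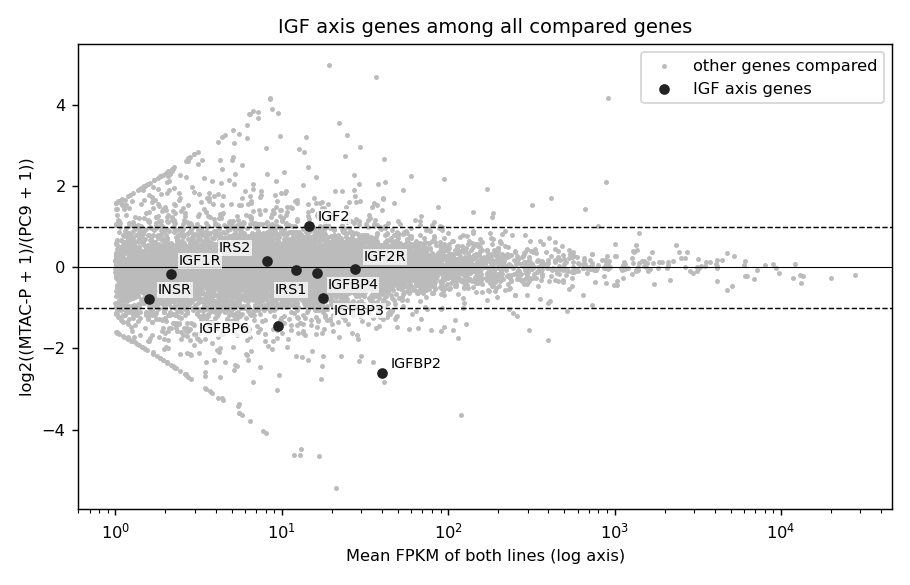
Log2 ratio of MTAC-P over PC9 (vertical axis, with a pseudocount of 1) against the mean FPKM of both lines (horizontal log axis) for the members in black and the other genes compared in grey, with dashed lines at 2-fold. IGFBP2 (-2.61) and IGFBP6 (-1.45) lie below the lower line, IGF2 (1.02) lies at the upper one, and the other 7 members lie between the lines.

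Of the pathway genes outside the member list 61 were compared, and 5 of them (8.2%) were 2-fold or more apart, near the 7.77% of all genes compared. Of 11 proteases and their regulators, which free IGFs from binding proteins or mature the receptors, 7 were compared, with 1 at least 2-fold higher, none lower and a median log2 ratio of 0.10. The 1 was STC2, stanniocalcin 2, which inhibits the IGFBP4 protease PAPPA and stood at 31.6 FPKM in MTAC-P and 14.7 FPKM in PC9 (1.05). PAPPA itself stood at 1.48 FPKM in MTAC-P and 1.32 FPKM in PC9 (0.10). FURIN, which cleaves the receptor precursors, stood at 28.16 FPKM in MTAC-P and 24.03 FPKM in PC9 (0.22).

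Of 19 adaptors and feedback genes 14 were compared, with a median of 0.12, against -0.02 over all genes compared. SOCS3, a feedback inhibitor of cytokine receptors that also binds the insulin receptor, was the 1 gene at least 2-fold higher, at 9.43 FPKM in MTAC-P and 3.40 FPKM in PC9 (1.24), and none was lower. GRB10, an adaptor that dampens IGF1R and INSR signalling, stood at 15.6 FPKM in MTAC-P and 14.3 FPKM in PC9 (0.12).

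Of 28 PI3K, AKT and mTOR genes 26 were compared, with none at least 2-fold higher, 1 lower and a median of -0.09. The 1 was EIF4EBP1, which encodes the translation repressor 4E-BP1 that mTOR inactivates, at 23.1 FPKM in MTAC-P and 57.8 FPKM in PC9 (-1.29). AKT2 had a log2 ratio of -0.81 and AKT1 one of -0.20. PIK3CD, the delta catalytic subunit, stood at 2.99 FPKM in MTAC-P and 1.08 FPKM in PC9 (0.94), within 2-fold on the scale with the pseudocount of 1 but at a plain ratio of 2.77.

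Of 11 genes of the IGF2 locus and of factors that regulate IGF2 RNA 6 were compared, with 1 at least 2-fold higher and none lower (median 0.20). HMGA2, a chromatin protein of fetal tissue that has been described to raise IGF2 and IGF2BP2 expression, stood at 113 FPKM in MTAC-P and 52.1 FPKM in PC9 (1.11). The RNA-binding genes IGF2BP1 (0.22), IGF2BP2 (-0.09) and IGF2BP3 (0.19) were within 2-fold, at 15.5 to 28.99 FPKM over both lines. PLAG1, which was also compared, lay below 0 (-0.37). A link between any of these genes and the IGF2 level was not tested.

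FOXO factors are held outside the nucleus by AKT, and 13 of their targets other than INSR and IRS2 were listed as a readout. Of these 7 were compared, none was at least 2-fold higher and 1 was lower. Their median was -0.30, against -0.02 over all genes compared. BCL6, a transcriptional repressor, stood at 5.77 FPKM in MTAC-P and 29.6 FPKM in PC9 (-2.17). TXNIP (0.04) and BCL2L11 (-0.03), which encodes the proapoptotic protein BIM, lay near 0. The rest of those compared were SESN1 (-0.46), CCNG2 (-0.40), CITED2 (-0.30) and TRIB1 (0.13). FOXO1 and FOXO3 had log2 ratios of -0.06 and 0.21.

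**Figure D4:**
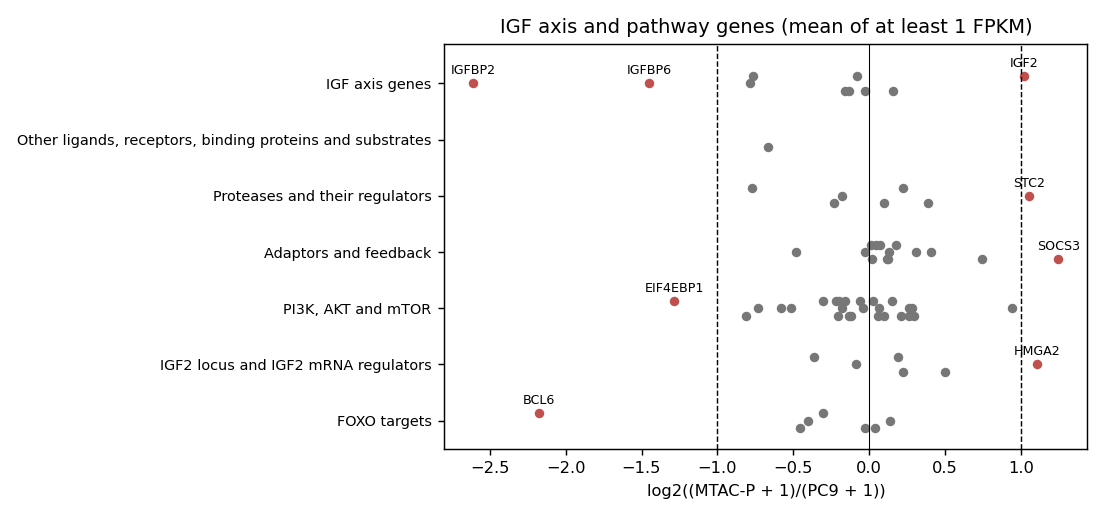
Log2 ratios of MTAC-P over PC9 (horizontal axis, pseudocount of 1) for members and pathway genes averaging 1 FPKM or more, 1 point per gene and 1 row per list, spread vertically for legibility, with dashed lines at 2-fold. STC2 (1.05), SOCS3 (1.24) and HMGA2 (1.11) lie beyond the line on the higher side, and EIF4EBP1 (-1.29) and BCL6 (-2.17) on the lower side.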

How the data were processed

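The authors deposited 1 value per transcript for each line, with no counts or intervals, and the values are taken as FPKM because the submitters' processing notes name Trim Galore, TopHat and Cufflinks with build hg38. Tool versions and the annotation release are not given in the sources used here. Each table ends at 65535 transcripts (ID number 437205), so later transcripts were not analysed here, and depth is unknown. Triplicates are named in the series design, whereas 1 value column was given per line.

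FPKM were summed per symbol, and genes averaging 1 FPKM or more were compared as log2((MTAC-P + 1)/(PC9 + 1)), with 2-fold as the threshold. Coordinates and sequences came from GENCODE release 29 (GRCh38, the assembly hg38 names), which held 23 of the 27 member transcripts. The members and the lists were chosen with earlier results of these data known. Named besides the members were up to 6 genes per list at 2-fold or more, or else the 2 most abundant. AKT1, AKT2, PIK3CD, PAPPA, FURIN, GRB10, TXNIP, BCL2L11, SESN1, CCNG2, CITED2, TRIB1, FOXO1, FOXO3 and H19 were added after their values were seen. So were IGF1, INS, INS-IGF2, IGF2-AS, IRS4, NKX2-1, NAPSA, SFTPB, PLAG1 and the IGFBP and IGF2BP genes. Python 3.11.15 and pandas 2.3.3 were used. The summing per symbol and the 2-fold call were run on simulated data with 4-fold changes set in. That run checked the code alone and did not cover low genes, transcript splits, motif searches or the spread between cultures.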

Additional observations from a re-analysis of the deposited data

How the results depend on the processing

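No paired analysis was possible because just 1 value column was given per line, and for the same reason no replicate could be left out. The number of members 2-fold or more apart was 3, and it was 5 at 1.5-fold (with INSR and IGFBP3) and 1 at 4-fold (IGFBP2). It was 4 with a pseudocount of 0.1 or with plain ratios, where INSR was added, and 2 with a pseudocount of 5, with scaling without mitochondrial transcripts or with equal upper quartiles, where IGF2 was lost. The use of plain ratios and of GENCODE transcripts alone was chosen after seeing the data; GENCODE transcripts alone left 3. IGF2 stood at 0.28 when its most abundant transcript alone was used. The number of compared genes 2-fold or more apart was 888, against 1344 with a pseudocount of 0.1, 284 with one of 5, 431 with a mean of at least 5, 2307 at 1.5-fold and 174 at 4-fold. No member changed direction under the alternatives tried, and no scaling moved the median of all genes by more than 0.05. Depth is unknown, so no precision can be given for low genes such as INSR and IGF1R.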
